A study of Mus musculus with 2 samples.

Results

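The TAM receptors and the genes of dead-cell uptake around them were read by 29 probes for 10 genes, out of 34885 probes with 1 annotated gene and 19057 genes. The members were taken by name, as every probe that the platform annotation assigns to Mertk, Axl, Tyro3, Gas6, Pros1, Mfge8, Timd4, Elmo1, Gulp1 or Megf10. RNA came from 2 samples of bone marrow cells of C57BL/6J mice aged 8 to 12 weeks, each sample standing for 3 mice and read on 1 Illumina bead array. Macrophages were grown with the cytokine M-CSF at 25 ng/ml. Osteoclasts, the bone-resorbing cells that form by fusion of the same precursors, were made from 4-day M-CSF cultures by 3 more days with M-CSF at 25 ng/ml and soluble RANKL at 30 ng/ml. Both cultures therefore shared the strain, the marrow source and M-CSF, and differed by RANKL; the labels do not say whether macrophages were kept for the further 3 days. The arrays lay on different chips, so chip and cell type cannot be told apart. With 1 array per cell type no difference has a replicate check, no test was possible, and every fold below compares these 2 arrays.

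Mertk, Axl and Tyro3 encode the TAM receptors, tyrosine kinases that let a phagocyte recognise a dying cell through a bridging protein. Gas6 and protein S, the product of Pros1, are vitamin K-dependent proteins that bind phosphatidylserine on the dying cell with one end and the TAM receptors with the other; signalling from these receptors also dampens inflammatory cytokine production. Mfge8 encodes a secreted bridge of another route, which ties phosphatidylserine to alpha-v integrins, and Timd4 encodes a receptor that binds phosphatidylserine directly. Elmo1, Gulp1 and Megf10 act in the engulfment step: Elmo1 forms with Dock proteins an activator of the small GTPase Rac, Gulp1 is an adaptor, and Megf10 is an engulfment receptor best known in astrocytes and muscle precursors.

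Mertk, Gas6 and Axl were lower in the osteoclast sample by 4.71-fold, 4.51-fold and 3.51-fold, and Mfge8 was 3.01-fold higher. The second TAM ligand gene, Pros1, and the engulfment gene Elmo1 lay within 2-fold, as did Timd4 and Megf10 near background, while Tyro3 and Gulp1 were detected on neither array. Of 8 detected members, 1 was thus at least 2-fold higher and 3 were at least 2-fold lower, beside 11.5% and 8.21% of the 12999 genes detected on at least 1 array. The median difference of the 8 members was -0.78 log2 units beside -0.05 for all detected genes, and -0.15 beside 0.60 without normalization. A probe was called detected where a normal background fitted to its array would exceed its value with a probability of 0.01 at most, that is above an intensity of 4.93 for macrophages and of 7.21 for osteoclasts. Every difference is the osteoclast value less the macrophage value of log2(corrected intensity + 16) after quantile normalization, a scale that understates differences of dim genes.

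The labelled cell types were checked by their markers. Ctsk, the collagen-degrading cathepsin K, had an intensity of 55.4 in macrophages and 50206 in osteoclasts, and Acp5, which encodes the tartrate-resistant acid phosphatase stained in osteoclasts, had 24.4 and 2196. Csf1r and Adgre1, which encode the M-CSF receptor and F4/80, were 2.80-fold and 2.41-fold lower in osteoclasts but well above background on both arrays. Of 5 detected macrophage markers 4 were at least 2-fold lower in osteoclasts, with a median of -1.48 and a range from -4.11 to -0.63. Of 10 osteoclast markers 7 were at least 2-fold higher, and Atp6v0d2 was detected on neither array. Itgb3 (0.71) and Nfatc1 (-0.02, with probes from -0.72 to 3.15) lay within 2-fold. The osteoclast array was brighter as a whole, with a median corrected signal, before normalization and over the probes seen on both, 1.76 times that of the other array. Numbers of calls over all genes moved with the scaling, from 1500 higher and 1067 lower genes to 1306 and 1741 with median scaling and to 3843 and 374 without normalization. A difference in RNA per cell and a difference in the share of cells of a type cannot be told apart in bulk samples.

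**Figure D1:**
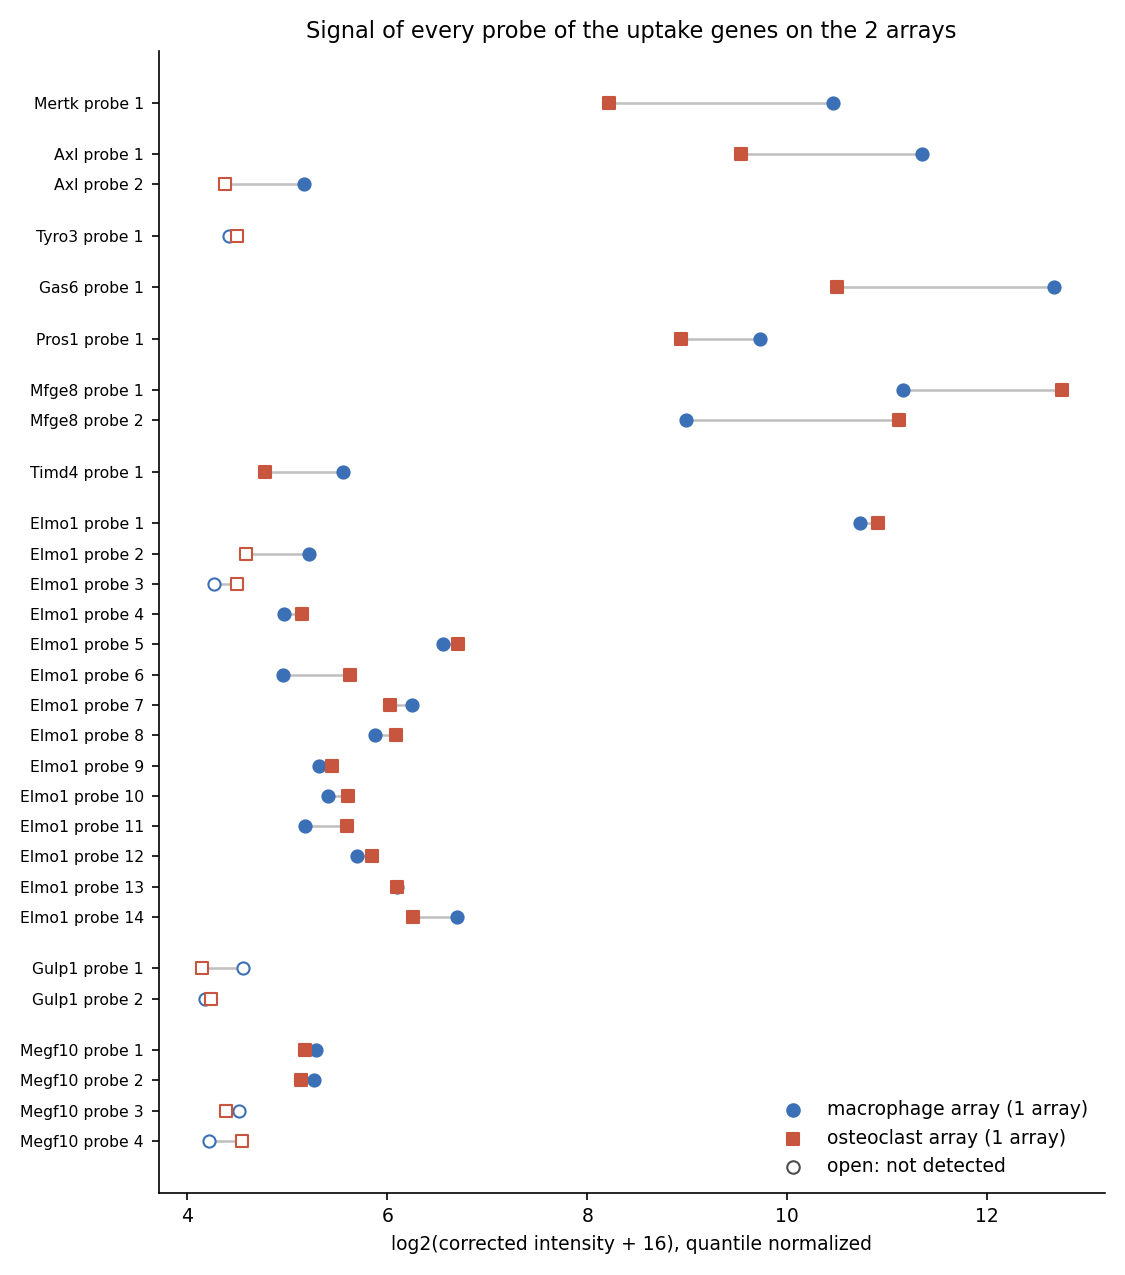
Normalized log2 signal (x axis, log2 of corrected intensity plus 16) of each of the 29 probes, 1 probe a row, on the macrophage array (circles) and the osteoclast array (squares), 1 array each; open symbols are not detected. Mertk, Axl and Gas6 lie to the left in osteoclasts and both Mfge8 probes to the right, whereas most Elmo1 pairs lie close together.

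Among the receptors, Mertk (Entrez Gene 17289) is well known for the clearance of dying cells by macrophages. Mertk had an intensity of 1049 in macrophages and 384 in osteoclasts. Its authors' processed values were 10.55 and 8.38 on the log2 scale. The gene has 1 probe on the array, well above background in both samples, and the osteoclast value was the lower one although that array was brighter as a whole. The normalized difference was -2.24, and 1.64% of detected genes were lower still. Axl (Entrez Gene 26362), a receptor that several cell types use in inflammation, had an intensity of 1995 in macrophages and 967 in osteoclasts at its bright probe, with authors' values of 11.45 and 9.66. Its difference was -1.81, with 2.62% of detected genes lower. The other Axl probe was dim, at 11.0 in macrophages and -1.98 in osteoclasts, and gave a bound of at least 1.39-fold lower. Both Axl probes thus pointed the same way, but the size rests on 1 of them. Tyro3, the TAM receptor most associated with the nervous system, had intensities of -0.662 and 1.99, under the detection limit on both arrays, so no fold is given.

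Of the ligands, Gas6 (Entrez Gene 14456), which can engage all 3 TAM receptors, had an intensity of 5230 in macrophages and 1876 in osteoclasts. The authors' values were 12.82 and 10.60. The difference was -2.17, and 1.76% of detected genes were lower. Pros1 (Entrez Gene 19128), the ligand of Mertk and Tyro3 that also circulates as an anticoagulant cofactor, had an intensity of 622 in macrophages and 641 in osteoclasts. These nearly equal intensities gave a difference of -0.78 once the brightness of the arrays was matched, and 0.05 without that step, where the median of all detected genes stood at 0.60. Thus 1 of the 2 TAM ligand genes and both detected TAM receptor genes were at least 2-fold lower in osteoclasts, and Pros1 stayed within 2-fold. Without normalization Mertk (-1.40), Gas6 (-1.47) and Axl (-1.03) were still at least 2-fold lower, and from the authors' processed values the folds were 4.51 for Mertk, 4.64 for Gas6 and 3.46 for Axl.

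The bridge of the integrin route went the other way. Mfge8 (Entrez Gene 17304) had an intensity of 1757 in macrophages and 8509 in osteoclasts at its brighter probe, a difference of 1.59. The authors' values at this probe were 11.26 and 12.77. At the other probe, annotated to a different RefSeq transcript of the gene, the intensity was 358 in macrophages and 2855 in osteoclasts, a difference of 2.13 or 4.37-fold. Both probes were well above background on both arrays, both were higher in osteoclasts, and 5.59% of detected genes exceeded the difference of the brighter one. Whether either probe reads a single transcript form is not stated in the labels or files. The integrin genes on the other side of this bridge were mixed: Itgav, which encodes the alpha-v chain, was 6.27-fold higher at its brightest probe but its probes ranged from -0.69 to 2.65, while the partner chains Itgb3 (0.71) and Itgb5 (-0.67) lay within 2-fold. Itgb3 was dim, with an intensity of 7.93 in macrophages and 42.8 in osteoclasts, so its size depended on the processing. It differed by 1.49 without background correction and by 1.22 without normalization, where the median of all detected genes was 0.60. Itgb3 and Itgb5 were picked here as partners of Mfge8 after their values were seen.

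Markers of some other cells moved with these differences. Their summed intensities are given before normalization. Of 9 measured neutrophil markers 9 were at least 2-fold lower in osteoclasts, with a summed intensity of 48914 in macrophages and 873 in osteoclasts, the same direction as Mertk, Axl and Gas6. Of 8 detected fibroblast and stromal markers 5 were at least 2-fold higher, or 4 at their bounds, with summed intensities of 48.0 and 2066, the direction of Mfge8, whose product stromal and epithelial cells are known to secrete. Dcn, the main part of that sum, had intensities of -2.82 and 1600; Col1a1, Col3a1, Lum and Thy1 were likewise not detected on the macrophage array, and Pdgfrb and Postn on neither. All 6 measured epidermal markers (summed intensities of 105 and 18124) and 6 of 7 muscle markers (47.8 and 8661) were higher in osteoclasts; Pax7, of muscle precursors, was not detected on either array. Megakaryocyte and platelet markers, of cells known to hold Pros1 and Gas6, were lower in 3 of 4 detected. Their summed intensities were 1724 and 694, of which Pf4 alone held 1537 and 682. In macrophages Ppbp had 145, Itga2b and Gp9 were dim at 19.1 and 23.4, and Gp1bb was not detected. Among 7 detected endothelial markers 1 was at least 2-fold higher. It was Vwf, with 37.6 and 198 of the summed 148 and 322. Of the 7 differences 3 were above 0 and 4 below, with a median of -0.30. Of the B cell, erythroid and dendritic cell lists 1, 2 and 5 markers were detected; 1 B cell marker was lower, 1 erythroid marker higher and 2 dendritic cell markers lower, or 1 at its bound. The part of these cells in the member differences was not tested.

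**Figure D2:**
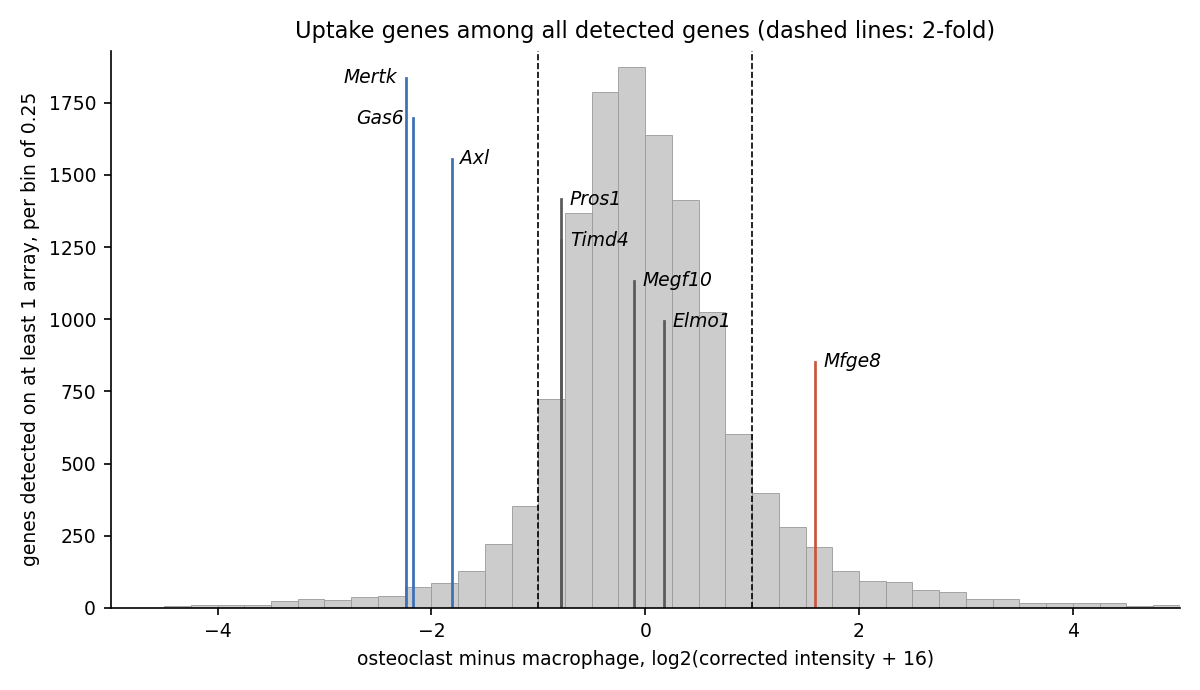
Number of detected genes (y axis) per bin of 0.25 in the osteoclast minus macrophage difference (x axis, log2, shown from -5 to 5), with a line at the difference of each of the 8 detected members, whose heights only separate the labels, and dashed lines at 2-fold. Mertk, Gas6 and Axl lie in the lower tail, Mfge8 in the upper tail, and the other 4 members between the dashed lines, with Pros1 and Timd4 at the same place.

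Promoter sequence is shown for the 4 members that were at least 2-fold apart, 3 lower and 1 higher, so that the 2 directions can be set side by side. These are the 250 bases before the annotated start from RefSeq's GRCm38.p6, which lists 9 of the 10 members, written 5′ to 3′ along the gene's own strand. Capitals mark matches on either strand to GGGCGG (the GC box, a site of Sp1-type factors) or GAGGAA (the core bound by PU.1, the master regulator of myeloid cells); TGANTCA (AP-1), CACGTG (the E-box of MITF and its relatives) and TATAAA (the TATA box) were searched too, and no 2 matches overlapped. The GC box was added after these sequences had been read. The windows are chr2:128698665-128698914 on the plus strand for Mertk, chr7:25788734-25788983 on the minus strand for Axl, chr8:13494536-13494785 on the minus strand for Gas6 and chr7:79149061-79149310 on the minus strand for Mfge8.
Mertk: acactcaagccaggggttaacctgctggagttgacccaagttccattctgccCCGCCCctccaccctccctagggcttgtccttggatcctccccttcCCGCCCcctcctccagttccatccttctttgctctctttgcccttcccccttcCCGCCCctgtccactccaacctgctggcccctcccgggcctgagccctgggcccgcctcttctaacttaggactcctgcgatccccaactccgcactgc
Axl: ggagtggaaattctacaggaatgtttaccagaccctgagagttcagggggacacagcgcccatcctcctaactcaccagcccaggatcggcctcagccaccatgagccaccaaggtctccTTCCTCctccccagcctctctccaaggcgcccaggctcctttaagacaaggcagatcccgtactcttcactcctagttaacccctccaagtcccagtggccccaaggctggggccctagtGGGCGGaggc
Gas6: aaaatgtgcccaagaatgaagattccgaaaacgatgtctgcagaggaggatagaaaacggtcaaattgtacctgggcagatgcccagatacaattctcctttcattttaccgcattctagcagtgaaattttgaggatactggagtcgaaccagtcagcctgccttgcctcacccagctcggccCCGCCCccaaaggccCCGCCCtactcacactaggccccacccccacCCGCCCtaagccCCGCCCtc
Mfge8: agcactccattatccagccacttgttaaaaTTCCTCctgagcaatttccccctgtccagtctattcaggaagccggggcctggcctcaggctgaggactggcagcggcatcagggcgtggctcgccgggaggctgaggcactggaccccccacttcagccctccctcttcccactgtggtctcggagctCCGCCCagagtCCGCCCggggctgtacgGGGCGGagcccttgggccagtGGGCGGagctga

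All 4 windows held the GC box, 3 times in Mertk, once in Axl and 4 times each in Gas6 and Mfge8. It was present for 8 of the 9 listed members, against 52.2% of 13246 windows of detected genes and 32.7% of all 32851 windows. These counts are not alike, since members are counted as genes with a match in any window. Elmo1 has another window without a GC box, and Tyro3 and Gulp1 are listed members that were not detected. The GAGGAA core was found once in Axl, 130 bases before the start, and once in Mfge8, 220 bases before it, against 22.9% of windows of detected genes. AP-1 and E-box matches were in 0 of the 9 members' windows (5.37% and 7.81% of windows of detected genes), and a TATA box match only in the window of 1 of the annotated starts of Elmo1 (8.18%). The window of Mfge8, higher in osteoclasts, and those of the 3 lower genes thus did not separate by these letters. No match says only that the letters are not in these bases.

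Among the remaining members, Timd4 (Entrez Gene 276891), a receptor of resident macrophages of the peritoneum and other tissues, was dim. Its intensity was 19.5 in macrophages and 9.48 in osteoclasts, the latter only just above the limit of 7.21. The difference was -0.78, and it was -1.97 without background correction, -1.16 with median scaling and -0.62 from the authors' values, so its size at this brightness depended on the processing. Megf10 (Entrez Gene 70417) had 2 of 4 probes detected, with intensities of 13.5 and 13.2 in macrophages and 21.3 and 19.8 in osteoclasts. Those probes differed by -0.10 and -0.13, and by 0.37 at the brighter one without normalization. Gulp1 (Entrez Gene 70676) was under the detection limit at both of its probes on both arrays, with intensities from -16.2 to 1.62.

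Elmo1 (Entrez Gene 140580) was read by 14 probes on the same pair of arrays. At the brightest probe the intensity was 1285 in macrophages and 2504 in osteoclasts, and the difference was 0.18, with 38.6% of detected genes above it. The other 13 probes were dim, from -4.52 to 57.2 in macrophages and from 2.05 to 120 in osteoclasts. The brightest probe and a dim one, at 7.63 and 20.0, were annotated to a different RefSeq transcript from the rest. That dim probe also differed by 0.18. Of the 12 probes detected on both arrays 9 differences were above 0 and 3 below, from -0.44 to 0.67 with a median of 0.17, and 0 reached 2-fold on this scale. All but the brightest of them were dim, where the scale understates differences. The probe at 0.67 had intensities of 7.42 and 39.0, and differed by 1.47 without background correction and 1.16 without normalization. Another, at 50.2 and 120, differed by 1.02 without normalization. A further probe was detected on the macrophage array only, at 12.1 against 4.28, with a bound of at least 1.44-fold lower, and the last was detected on neither array. Without normalization the brightest probe differed by 0.95, beside a median of 0.60 for all detected genes, so that probe stayed within 2-fold there as well. These differences between probes hold the disagreement of probes on 1 pair of arrays, and not that between cultures.

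**Figure D3:**
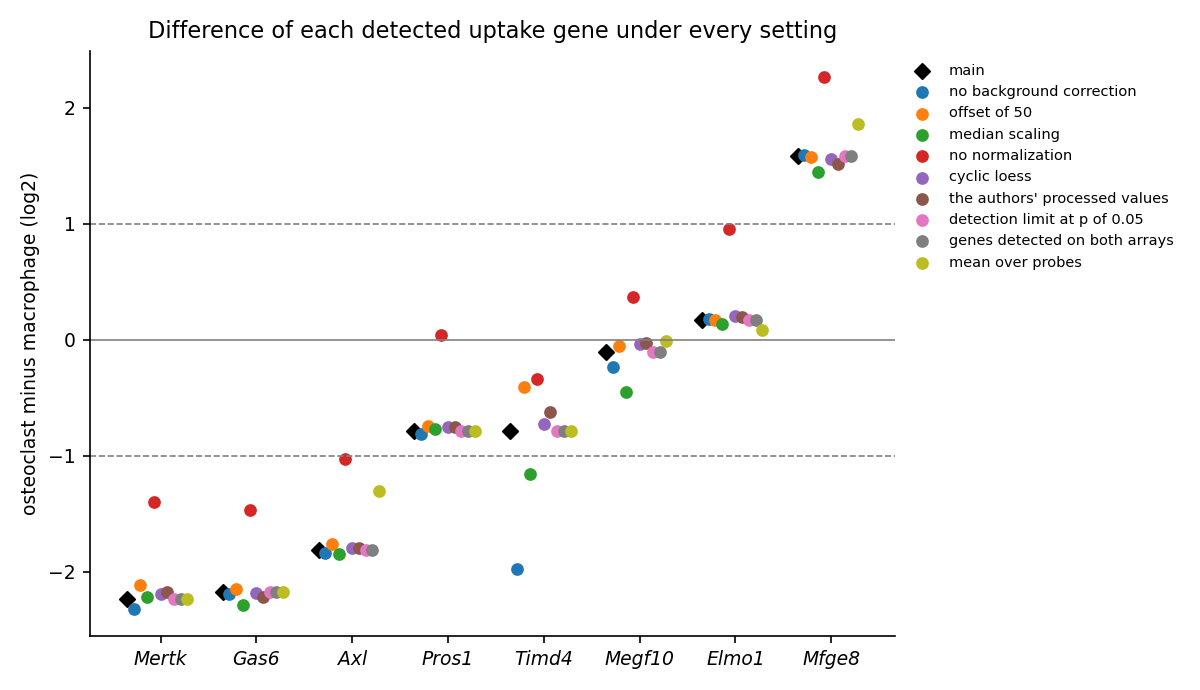
Osteoclast minus macrophage difference (y axis, log2) of the 8 detected members (x axis) as reported (diamonds, "main") and under 9 other ways of processing (circles), with dashed lines at 2-fold. Mertk, Gas6 and Axl stay under the lower line and Mfge8 above the upper line in all of them, while Timd4 crosses the lower line in 2 and Pros1 and Megf10 cross 0 without normalization. The looser detection limit and the restriction to genes detected on both arrays could not move any of the 8, nor could averaging over probes move members with 1 probe.

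The wider pathway was described by 7 lists with 141 genes, of which 133 were measured and 115 detected. Of these 11 were at least 2-fold higher in osteoclasts and 23 lower (21 at their bounds), which is 9.57% and 20.0% beside 11.5% and 8.21% of all detected genes. The median was -0.36, beside -0.05 for all detected genes, and 0.35 beside 0.60 without normalization. The lists were drawn up with earlier results of these arrays known, so the shares are a description.

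Of 21 other detected uptake receptors 2 were higher (9.52%) and 4 lower (19.0%), with a median of -0.60. Over all detected genes the shares were 11.5% and 8.21%, to be set beside the shares of each list below. Without normalization 7 were higher and 3 lower, and the median was 0.18. Over all 12999 detected genes that setting gave 3843 higher and 374 lower and a median of 0.60. Stab1, a scavenger receptor of phosphatidylserine, was 11.8-fold lower at its brightest probe, but its probes ranged from -3.56 to 1.79. The mannose receptor gene Mrc1 was 6.13-fold lower, and Havcr2, which encodes TIM-3, of the same family as Timd4, was 5.20-fold higher with probes from 1.37 to 2.38; Itgav is given above. Bridging molecules went both ways, 3 of 11 higher (27.3%) and 4 lower (36.4%). Their median was 0.03 (-0.19 with median scaling and -0.04 from the authors' values). The number higher was 2 with median scaling, 2 with an offset of 50 and 1 with the mean over probes. Over all 12999 detected genes these settings gave 1306, 1029 and 1124 higher. Calr, counted among the 3, lay at the 2-fold limit with 1.00, and the mean over its 2 probes was 0.56. The complement genes C1qa and C1qb were 13.7-fold and 6.76-fold lower and Thbs1 (thrombospondin 1) at least 7.71-fold lower, the direction of Gas6. Anxa1 (annexin A1, a phosphatidylserine-binding protein) was 6.97-fold higher, the direction of Mfge8. Edil3 is a relative of Mfge8 that also ties phosphatidylserine to integrins. At the brightest of its 9 probes Edil3 had intensities of -0.215 and 115 and was at least 3.66-fold higher. A probe of Edil3 detected on both arrays differed by -0.02, and the mean over its 9 probes was 0.54. Edil3 was named after its values were seen.

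Of 31 detected genes of the engulfment machinery around Elmo1 3 were higher (9.68%) and 4 lower (12.9%), near the 11.5% and 8.21% of all detected genes. Of the 31, 24 differences were below 0, with a median of -0.47. Over all 12999 detected genes 6819 were below 0, with a median of -0.05. Without normalization 6 were higher and 0 lower, and the median was 0.31. Dock5, of the family of Elmo partners, was at least 2.75-fold and the adaptor gene Bcar1 at least 2.62-fold higher, and the GTPase genes Rab5b and Rhog, the latter an activator of Elmo1, were 2.75-fold and 2.37-fold lower. For LC3-associated phagocytosis, by which engulfed corpses are digested, 1 of 12 genes was higher (8.33%) and 2 were lower (16.7%), or 1 at its bound. Rubcn was 2.34-fold lower, Map1lc3a 2.23-fold higher, Cybb at least 1.81-fold lower and Uvrag 1.81-fold lower.

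Of 12 detected genes of find-me and do-not-eat-me signals 0 were higher and 4 lower (33.3%), or 3 at their bounds, with a median of -0.77. Of the 10 detected on both arrays 2 were lower with a median of -0.39. Of all 10492 genes detected on both arrays 937 were lower, with a median of -0.09. Without normalization 2 of the 12 were higher and 3 lower with a median of -0.03, beside a median of 0.60 for all detected genes. P2ry6 and Cx3cr1, receptors for a nucleotide and for fractalkine, were 4.06-fold and 4.05-fold lower, P2ry12 was at least 4.17-fold lower and Pecam1 differed by -0.99. Among nuclear receptors and corpse digestion genes 2 of 15 were higher (13.3%) and 3 lower (20.0%), beside 11.5% and 8.21% of all detected genes. Nr1h3 (LXR alpha, a receptor known to induce Mertk in macrophages) was 5.53-fold higher. Any link between its level and that of Mertk was not tested. Odc1 (ornithine decarboxylase) was 4.79-fold higher, and Ppard and Rxra were 2.45-fold and 2.20-fold lower. Of 13 genes of TAM signalling, shedding and feedback 0 were higher and 2 lower (15.4%). Socs3, a cytokine feedback inhibitor, was 5.05-fold and the interferon receptor gene Ifnar2 2.65-fold lower. Adam17, the protease that sheds Mertk, differed by -0.95 and the adaptor gene Shc1 by -0.69. Without normalization the medians of the LC3, nuclear receptor and TAM signalling lists were 0.33, 0.64 and 0.47, against -0.42, -0.15 and -0.19 with it.

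**Figure D4:**
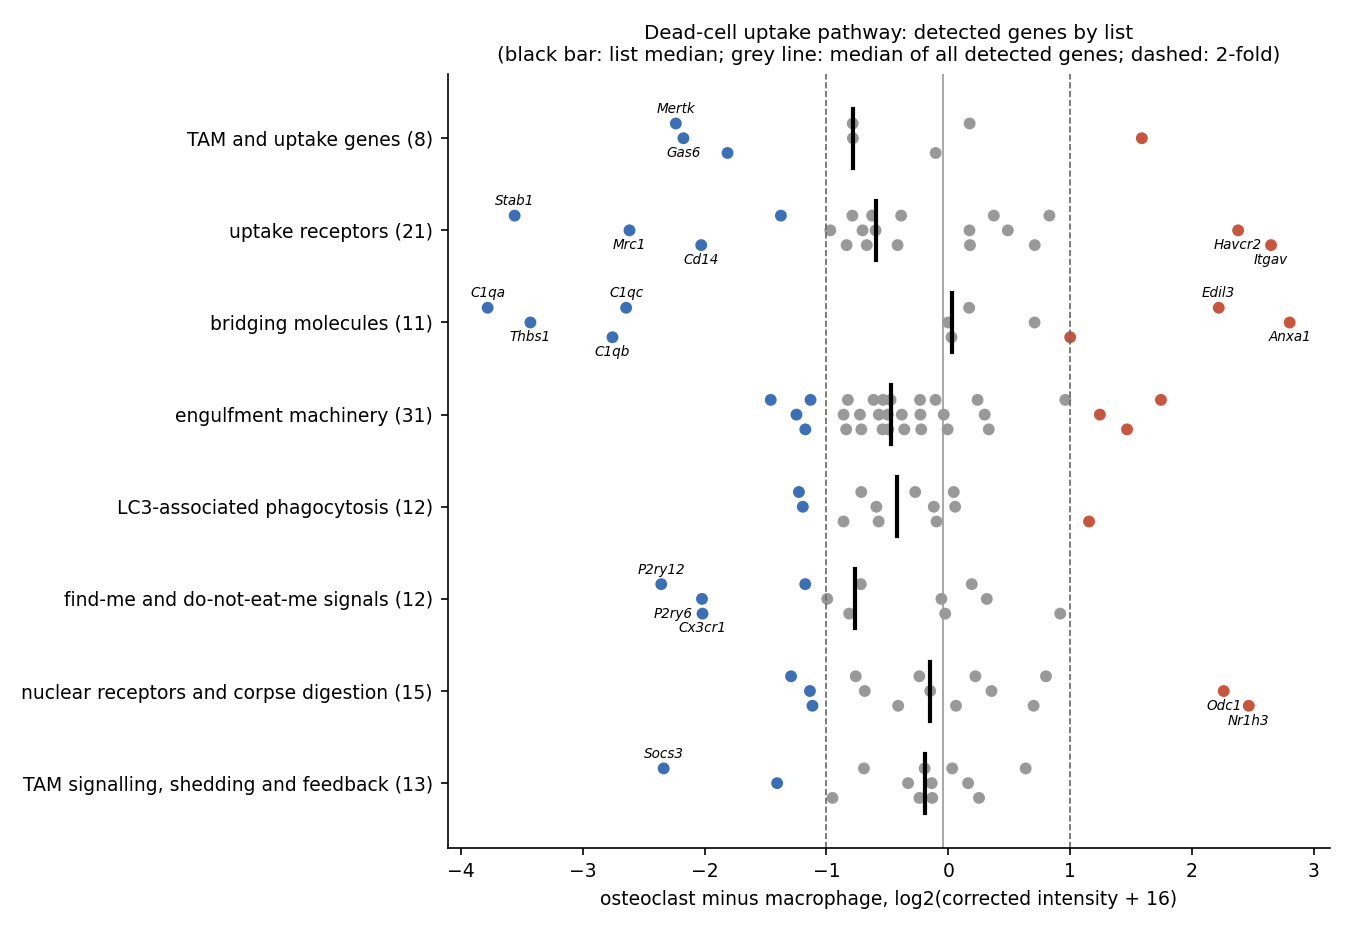
Osteoclast minus macrophage difference (x axis, log2) of each detected gene of the 10 members and of 7 pathway lists (y axis, detected genes in brackets); black bars are medians, the grey line the median of all detected genes and dashed lines 2-fold, and genes at least 4-fold apart are named. Most medians lie left of the grey line, and genes on both sides of the dashed lines occur among receptors, bridging molecules, engulfment machinery, LC3-associated phagocytosis and nuclear receptors.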

How the data were processed

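Biotin-labelled cRNA from 2 samples was read on Illumina bead arrays, per the labels' protocols. The deposited non-normalized table holds 1 linear intensity per probe; 38.4% and 36.9% of values were below 0 on the macrophage and osteoclast arrays, so a background had been subtracted. The authors' processed values are on a log2 scale; the software, background method and normalization behind them are not stated in the labels or headers, and their centring is unknown (medians 5.00 and 5.05). Across 5844 probes above 200 on both arrays, regressing their difference on the log2 intensity ratio gave a slope of 0.97 (r = 0.999), across probes, which are not independent replicates.

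Background mean and SD were estimated per array from the mode of the intensities and the spread below it (-3.59 and 3.66 for macrophages, -5.35 and 5.40 for osteoclasts). Intensities were then corrected by normexp, 16 was added, log2 was taken and the 2 arrays were brought to 1 distribution of values by quantile normalization (limma 3.58.1 in R 4.3.3; Python 3.11.15, pandas 2.3.3). These steps were tried on data simulated with the normal background that they assume, in which only bright probes were changed. That simulation could not check differences of genes dim on both arrays. No probe is marked as a control, so that limit of detection could not be checked. Of 45281 probes, 34885 had 1 gene, 18 several and 10378 were not listed. Each gene stands at its probe with the highest mean signal. For a gene seen on a single array, the fold is a bound, taken against the lowest signal counted as detected on the other array, or against the gene's own value there if that was higher. Counts use a 2-fold size rule, since 1 array per group allows no test. Named genes are all members, up to 4 genes per pathway list with the largest differences, and Ctsk, Acp5, Csf1r and Adgre1; others were chosen after their values were seen. Members and lists were chosen with earlier results of these data known. Promoters are RefSeq's; probe sequences were not used here.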

Additional observations from a re-analysis of the deposited data

How the results depend on the processing

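Mertk, Gas6, Axl and Mfge8 kept their direction and stayed at least 2-fold apart under all 9 alternatives, which ranged from -2.32 to -1.40, from -2.28 to -1.47, from -1.84 to -1.03 and from 1.45 to 2.26 log2 units. Some alternatives could not change these values. A looser detection limit and a restriction to genes detected on both arrays left all 8 detected members as they were, since all were detected on both. Averaging over probes could not change Mertk or Gas6, which have 1 probe each. Timd4 ranged from -1.97 to -0.34, Pros1 from -0.81 to 0.05, Megf10 from -0.45 to 0.37 and Elmo1 from 0.09 to 0.95. The median of the members, -0.78 as reported, was -1.33 without background correction, -0.57 with an offset of 50 and -0.15 without normalization. Without normalization the pathway lists had a median of 0.35, with 26 of 115 genes higher and 11 lower. Over all 12999 detected genes that setting gave 3843 higher and 374 lower. An offset of 50 gave 7 pathway genes higher, beside 1029 of all, and averaging probes gave 6, beside 1124. Over all genes, 2817 were higher and 2547 lower without background correction. The cause of these shifts was not tested. No paired analysis was possible because each cell type had 1 array. Dim members are limited by signal over background.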
